A study of Sus scrofa with 15 samples.

Results

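PLOD1 (ENSSSCG00000003433) and BNIP3 (ENSSSCG00000024388) were followed in RNA-seq data from LLC-PK1, an epithelial line of pig kidney proximal tubule origin, after transfection with plasmids for human PKD2. These are 2 of the 16660 genes in the count table, and both were among the 11553 genes that passed the filter on low counts, a mean CPM (counts scaled to the library size) of at least 2 over the 15 libraries. They were chosen by their difference between the Tg2 plasmid and the empty plasmid in these same data, as hypoxia-responsive genes that were higher with Tg2. Their levels in NC and Tg2 are therefore a description and were not tested.

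PKD2 encodes polycystin-2, a cation channel that is mutated in autosomal dominant polycystic kidney disease. NC cells received the empty plasmid, and WT cells the plasmid with human wild-type PKD2. The mutant plasmids carried human PKD2 with A1532T in the coding sequence and D511V in the protein (Tg1), with T1967G and L656W (Tg2), or with C2224T and R742X (Tg3), where X is a stop codon and positions are counted from the start of the coding sequence or of the protein. All 5 plasmids had a floxP-neo-pH11 backbone with the CAG promoter. The 4 PKD2 inserts carried a FLAG tag sequence, which the labels also name for NC and the study's methods do not. By the study's account the shortened Tg3 protein is without the tag. Each plasmid was represented by 3 libraries of poly(A)-selected RNA. Expression was transient and was read in bulk, so a change in the share of cells that express a gene and a change in RNA per cell cannot be told apart. By the study's methods the libraries of a plasmid came from separately transfected wells. Whether the wells were separate cultures, passages or days is not stated, so the p-values measure the spread between wells. No library was made from cells kept at low oxygen, and the polycystin transcripts themselves were not analysed here.

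When oxygen is plentiful, the prolyl hydroxylases EGLN1 to EGLN3 mark the alpha subunits of hypoxia-inducible factor (HIF1A and EPAS1) for destruction through VHL, and HIF1AN blocks their transactivation domain. When oxygen falls, the alpha subunits pair with ARNT and switch on genes of glycolysis, of collagen processing, of blood vessel growth and of mitochondrial turnover. PLOD1 is lysyl hydroxylase 1, an enzyme of the endoplasmic reticulum that hydroxylates lysines of collagen chains ahead of cross-linking. BNIP3 is a BH3-only-like protein of the outer mitochondrial membrane that recruits the autophagy machinery to mitochondria, and it is one of the best known HIF targets. Both genes also respond to other signals, and a higher transcript level is not a measure of oxygen.

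The libraries held 20216200 to 26132196 counts. The cells carried the transcripts of their labelled type: 13 of the 16 proximal tubule markers reached a mean CPM of 2, among them LRP2 (median over the 15 libraries 254 CPM) and AQP1 (260 CPM), as did 7 of 7 epithelial markers. Markers of other cells were near 0, including UMOD of the thick ascending limb, CDH5 and KDR of endothelium and PTPRC of blood, except COL1A2 (median 907 CPM), SLC12A1 (12.2 CPM), CD3E (20.6 CPM) and CD68 (2.31 CPM). The libraries farthest from the means of their groups over all genes were WT replicate 2, WT replicate 3 and Tg2 replicate 3, with mean absolute deviations of 0.12, 0.10 and 0.10 on the log2 scale.

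PLOD1 was highest in the Tg2 libraries and lowest in the NC libraries. Its TMM-normalized level was 108.6, 112 and 108 CPM in the 3 NC libraries, with a mean of 109.6 ± 1.90 (SD, n = 3), and 143, 139 and 133 CPM in the 3 Tg2 libraries, with a mean of 138 ± 4.76 (SD, n = 3). The other plasmids lay between these and close to one another. PLOD1 stood at 112, 124 and 119 CPM with WT (118 ± 5.91, SD, n = 3), at 115, 120 and 119 CPM with Tg1 (118 ± 2.53, SD, n = 3) and at 117, 123 and 112 CPM with Tg3 (118 ± 5.58, SD, n = 3). Each Tg2 library was above each of the other 12 libraries, and each NC library was below each library of the other plasmids. The order of the means was Tg2, WT, Tg1, Tg3 and NC, and the libraries of the neighbours WT, Tg1 and Tg3 overlapped.

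BNIP3 had the same extremes with a wider spread. Its level was 92.2, 94.8 and 88.0 CPM in the NC libraries (91.7 ± 3.42, SD, n = 3) and 135, 134 and 114 CPM in the Tg2 libraries (128 ± 12.1, SD, n = 3). Tg2 replicate 3 was the low library of its group, and it was still above the highest library of any other plasmid, WT replicate 2 at 112 CPM. BNIP3 was at 95.2, 112 and 91.4 CPM with WT (99.7 ± 11.2, SD, n = 3), at 94.9, 108 and 109 CPM with Tg1 (104 ± 7.90, SD, n = 3) and at 104, 112 and 106 CPM with Tg3 (108 ± 4.20, SD, n = 3). The means ran from Tg2 through Tg3, Tg1 and WT to NC. Neighbours in that order overlapped from Tg3 down to NC, with WT replicate 3 inside the range of NC.

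**Figure D1:**
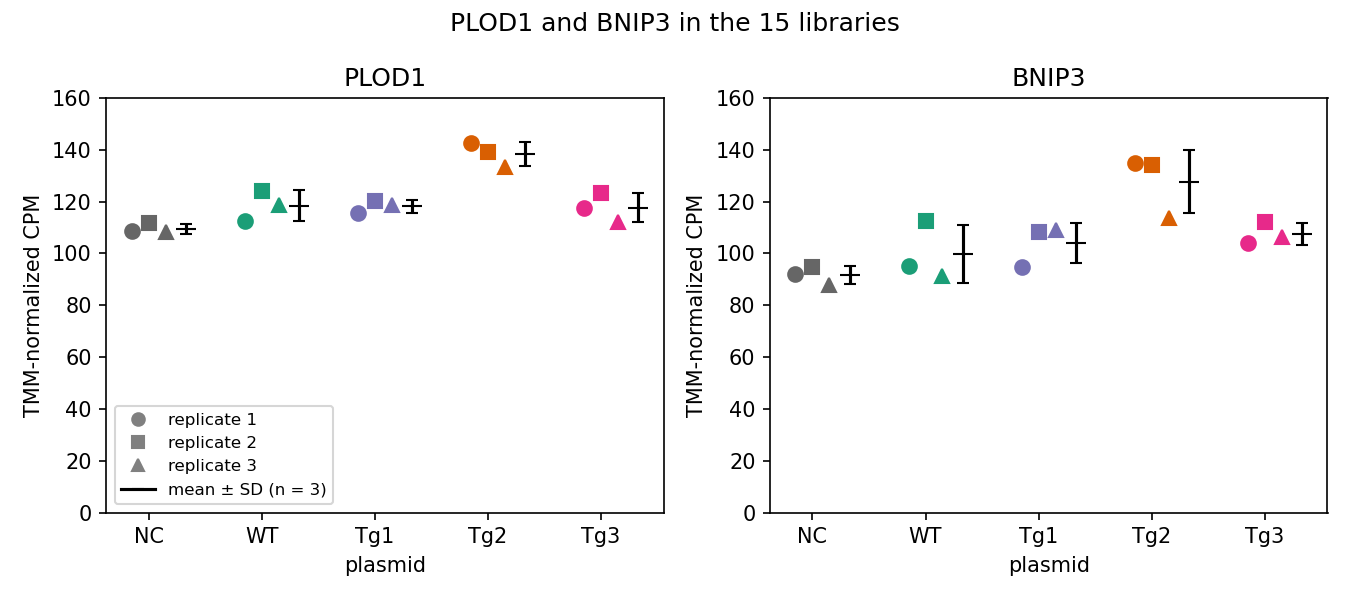
TMM-normalized CPM (vertical axis, from 0) of PLOD1 (left) and BNIP3 (right) in each of the 15 libraries, by plasmid (horizontal axis); symbols mark the replicate number of the labels and bars the mean ± SD of 3 libraries. The Tg2 libraries sit highest in both panels, between 133 and 143 CPM for PLOD1 and between 114 and 135 CPM for BNIP3.

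Counting error was small beside these levels. PLOD1 was represented by 2414 to 3186 counts per library and BNIP3 by 2044 to 3011. For PLOD1 the coefficient of variation between replicates was 1.74% in NC, near the 1.92% that counting alone gives, and reached 4.99% in WT. For BNIP3 it ran from 3.73% in NC to 11.2% in WT, against 2.10% and 2.14% from counting. The biological coefficient of variation fitted by edgeR was 4.39% for PLOD1 and 7.24% for BNIP3, where genes of similar level had 6.62% and 6.48%.

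Set against NC, PLOD1 was higher by 0.34 ± 0.05 (SE) on the log2 scale with Tg2, a difference of 26.3%, and by 0.11 ± 0.05 with WT, 0.11 ± 0.05 with Tg1 and 0.10 ± 0.05 with Tg3. BNIP3 was higher by 0.48 ± 0.08 (SE) with Tg2, a difference of 39.2%, by 0.23 ± 0.08 with Tg3, by 0.18 ± 0.08 with Tg1 and by 0.12 ± 0.08 with WT. In 7 of these 8 comparisons no library of the plasmid overlapped with NC, the exception being BNIP3 with WT. The share of all genes without such overlap was not counted, so the 7 are only a description. For PLOD1 the highest NC library was at 111.8 CPM, and the lowest Tg3 and WT libraries were at 112.3 and 112.4 CPM. All 8 comparisons share the 3 NC libraries. A gene is called here at an adjusted p of at most 0.05 together with a log2 difference of at least 0.26 in size. In Tg2 against NC 8.43% of all genes tested were called (4.73% higher and 3.7% lower), and no call is given for PLOD1 and BNIP3, which that contrast chose. Ranked upward by fold change, BNIP3 was 431st and PLOD1 830th of the 11553 genes.

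The Tg2 libraries also stood above the other PKD2 plasmids. PLOD1 was higher with Tg2 by 0.22 ± 0.05 (SE) against WT, 0.23 ± 0.05 against Tg1 and 0.23 ± 0.05 against Tg3 on the log2 scale. For BNIP3 the differences were 0.36 ± 0.08, 0.29 ± 0.08 and 0.25 ± 0.08 in the same order. None of these groups overlapped with Tg2, and the share of all genes without such overlap was not counted. These differences of PLOD1 and BNIP3 were not tested. Over all genes tested, Tg2 and Tg3 were not separated. The smallest edgeR adjusted p between them was 0.822, and 673 of 11553 genes had an unadjusted p under 0.05. Without the 3 libraries that stood farthest from their groups, the difference of Tg2 from WT became 0.33 for PLOD1 and 0.50 for BNIP3, and that of WT from NC 0.04 and 0.05. That fit kept WT replicate 1 as the only WT library, the lowest of its group for PLOD1, and lacked Tg2 replicate 3. These values therefore rest on a single WT well and do not show how stable the group differences are.

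WT, Tg1 and Tg3 are the 9 libraries that the choice of the genes did not use, and there the differences could be tested. PLOD1 differed by -0.0036 on the log2 scale between Tg1 and WT (95% interval -0.10 to 0.09), and edgeR's quasi-likelihood test with Benjamini-Hochberg adjustment gave an adjusted p of 0.975. The difference was -0.0088 between Tg3 and WT (-0.11 to 0.09, edgeR adjusted p = 0.926) and -0.0052 between Tg3 and Tg1 (-0.10 to 0.09, edgeR adjusted p = 0.971). For BNIP3 the differences were 0.06 between Tg1 and WT (-0.11 to 0.24, edgeR adjusted p = 0.723), 0.11 between Tg3 and WT (-0.07 to 0.29, edgeR adjusted p = 0.447) and 0.05 between Tg3 and Tg1 (-0.13 to 0.22, edgeR adjusted p = 0.837). The two-sided exact permutation test gave p between 0.7 and 0.9 for PLOD1 and between 0.4 and 0.8 for BNIP3, where 3 libraries against 3 allow no p below 0.1. Neither gene was called in these 3 comparisons, in which edgeR called 0.0692% of all genes (Tg1 against WT), 0% (Tg3 against WT) and 0.615% (Tg3 against Tg1, 0.554% higher and 0.0606% lower). The intervals leave room for differences up to about the size of the bounds given, so equal levels were not shown. Leaving out 1 library at a time moved the BNIP3 difference between 0.0045 and 0.16 for Tg1 against WT and between 0.053 and 0.21 for Tg3 against WT, with the highest values without WT replicate 2 and the lowest without WT replicate 3.

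**Figure D2:**
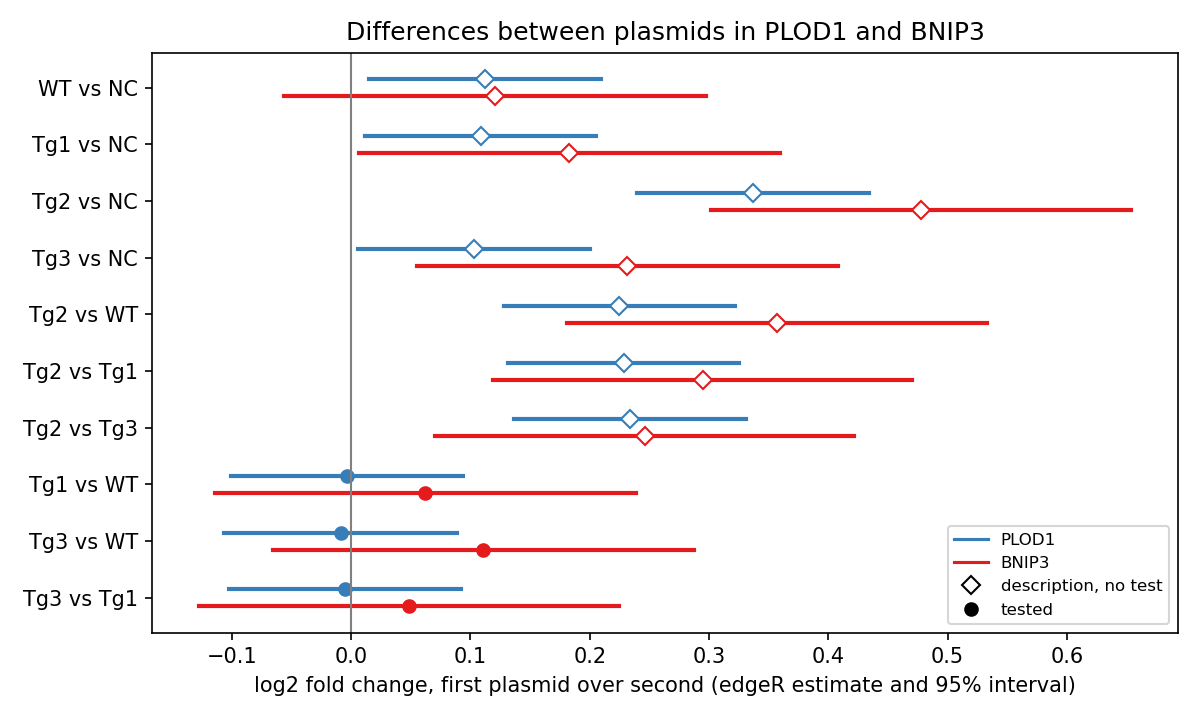
Log2 fold change of PLOD1 (blue) and BNIP3 (red) for each pair of plasmids, first over second (horizontal axis), with 95% intervals from the edgeR fit of 15 libraries; open diamonds are contrasts with NC or Tg2, which were used or shared by the choice of the genes and were not tested, and filled circles are tested contrasts. The intervals of all 6 tested differences include 0.

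The sister enzymes of PLOD1 were also higher with Tg2. PLOD3, lysyl hydroxylase 3, which also glycosylates collagen, was at 106, 112 and 103 CPM in NC and at 141, 130 and 130 CPM in Tg2, without overlap, and rose by 0.32 ± 0.07 (SE) on the log2 scale (edgeR adjusted p = 0.0182). PLOD2, lysyl hydroxylase 2, which acts on collagen telopeptides and is a HIF target, was at 73.7, 85.1 and 76.0 CPM in NC and at 107, 101 and 82.6 CPM in Tg2. Tg2 replicate 3 lay below NC replicate 2, so the groups overlapped, and PLOD2 rose by 0.31 ± 0.09 (edgeR adjusted p = 0.0383). With only NC and Tg2 in the model PLOD2 no longer passed the test. P3H1, which 3-hydroxylates collagen prolines, rose by 0.32 ± 0.05 (edgeR adjusted p = 0.0107), and LOXL4, a lysyl oxidase-like cross-linking enzyme, by 0.28 ± 0.06 (edgeR adjusted p = 0.0167). These 4 were the genes called among 17 tested members of the collagen modification list, PLOD1 itself left out, and 0 were called lower. With each NC or Tg2 library left out in turn, PLOD2, PLOD3 and LOXL4 each lost the call in 4 of 6 fits, and P3H1 in 3 of 6. Called or not, 9 of the 17 were higher and 8 lower. The median of the list was 0.06, against -0.01 over all genes tested, and its share called was 23.5%, against 8.43% of all genes. Transcripts of related genes can share reads in transcript quantification, which was not tested for the PLOD family or for BNIP3 and BNIP3L.

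BNIP3L, the closest relative of BNIP3 and likewise a mitophagy receptor that HIF induces, was not called. Its level was 95.8, 108 and 98.5 CPM in NC and 100.1, 102 and 93.9 CPM in Tg2, with overlapping libraries and a difference of -0.03 ± 0.05 (SE) on the log2 scale (edgeR adjusted p = 0.699). PINK1, the kinase that starts the Parkin route of mitophagy, was at 51.1, 46.5 and 56.1 CPM in NC and at 41.4, 37.3 and 43.9 CPM in Tg2. It fell by 0.33 on the log2 scale (SE 0.09, edgeR adjusted p = 0.0295) and was the only gene called among the 21 tested mitophagy receptors and regulators, a share of 4.76% against 8.43% of all genes (3.7% lower), with a list median of 0.04. SQSTM1, an autophagy cargo adaptor, and GABARAPL1, an autophagosome protein of the ATG8 family, had adjusted p-values of 0.0141 and 0.0240 by edgeR and missed the fold threshold, with differences of -0.25 and -0.22. AMBRA1, another autophagy regulator, had a difference of 0.13 and an edgeR adjusted p of 0.0450. FUNDC1, a hypoxia-linked receptor of the outer mitochondrial membrane named after its values were seen, was at 52.4, 65.0 and 44.0 CPM in NC and 94.1, 92.2 and 70.3 CPM in Tg2, a difference of 0.67 ± 0.22 (edgeR adjusted p = 0.0531).

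Of the BCL2 family, with which BNIP3 shares its BH3-like motif, 2 of 12 tested members were called (16.7%, against 8.43% of all genes). BID, a BH3-only protein that links death receptors to mitochondria, rose by 0.69 ± 0.21 (SE) on the log2 scale (edgeR adjusted p = 0.0474). BMF, a BH3-only protein bound to the cytoskeleton, fell by 0.43 (SE 0.12, edgeR adjusted p = 0.0387). MCL1 and BCL2L2, which restrain apoptosis, had differences of 0.24 and -0.14 (edgeR adjusted p = 0.0270 and 0.0340) and missed the fold threshold. The list median was 0.19.

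The genes that sense oxygen showed no call in Tg2 against NC. Of 8 tested members of the oxygen sensing list 0 were called by edgeR, 4 had an unadjusted p under 0.05, and DESeq2 also called 0. The background was 8.43% called, and 4069 of the 11553 genes reached an unadjusted p under 0.05, so 0 of 8 is near the background. HIF1A was at 319, 333 and 312 CPM in NC and 359, 366 and 339 CPM in Tg2, without overlap, a difference of 0.14 ± 0.06 (SE) on the log2 scale with an edgeR adjusted p of 0.132. EPAS1 had a difference of -0.19 ± 0.08 (edgeR adjusted p = 0.101) and its partner ARNT one of -0.15 ± 0.06 (edgeR adjusted p = 0.119). EGLN1 (0.06 ± 0.07) and HIF1AN (0.03 ± 0.04) differed by less than the spread between replicates, with overlapping libraries, and CITED2, an inhibitor of HIF that HIF induces, by 0.14 ± 0.05 (edgeR adjusted p = 0.0838). EGLN3 was below the filter, and EGLN2 and VHL were not analysed here. HIF alpha subunits are controlled mostly as proteins, which these libraries do not measure.

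Genes of glycolysis were mostly higher in Tg2 than in NC. Of 19 tested members 18 were higher, 6 rose past the thresholds and 0 fell past them, a share of 31.6% against 8.43% of all genes (4.73% higher), with a median of 0.17. Called or not, 5581 of the 11553 genes tested were higher with Tg2. With WT, Tg1 and Tg3, 18, 17 and 17 of the 19 were also higher than in the same NC libraries, each with a median of 0.07. Against WT, 17 of the 19 were higher with Tg2, 11 with Tg1 and 12 with Tg3. HK2, the inducible hexokinase that commits glucose to the pathway, was at 60.1, 64.9 and 51.4 CPM in NC and 101, 97.3 and 83.1 CPM in Tg2, and rose by 0.67 ± 0.11 (SE) on the log2 scale (edgeR adjusted p = 0.0117). PFKFB3, which makes the activator of phosphofructokinase, rose by 0.41 ± 0.08 (edgeR adjusted p = 0.0168), and PFKL, the liver-type phosphofructokinase, by 0.38 ± 0.08 (edgeR adjusted p = 0.0186). ENO1, an enolase, was at 1283, 1353 and 1266 CPM in NC and at 1639, 1582 and 1526 CPM in Tg2, and rose by 0.28 ± 0.05 (edgeR adjusted p = 0.0134). SLC16A3, a lactate exporter, had a difference of 0.25 ± 0.05 (edgeR adjusted p = 0.0180) and missed the fold threshold. The remaining calls were LDHA (0.27) and PDK1 (0.42), both named after their values were seen, which make lactate and hold back pyruvate oxidation.

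Of 22 other hypoxia targets 5 rose and 1 fell in Tg2 against NC (27.3%, against 8.43% of all genes, with a median of 0.19). EDN1, the vasoconstrictor endothelin-1, rose by 1.03 ± 0.16 (SE) on the log2 scale (edgeR adjusted p = 0.00877). ADM, the vasodilator adrenomedullin, was at 66.1, 73.6 and 64.4 CPM in NC and 125, 112 and 99.5 CPM in Tg2, and rose by 0.72 ± 0.09 (edgeR adjusted p = 0.00865). TMEM45A, a transmembrane protein, fell by 0.33 (SE 0.06, edgeR adjusted p = 0.0152). NDRG1, a stress-responsive gene, had a difference of 0.25 ± 0.05 (edgeR adjusted p = 0.0165) and missed the fold threshold. BHLHE40, a transcriptional repressor named after its values were seen, rose by 0.38 ± 0.09 (edgeR adjusted p = 0.0214). MAFF, a small transcription factor named after its values were seen, rose by 0.67. Over all 6 lists 16 of 99 tested genes rose and 3 fell, 19.2% called against 8.43% of all genes, and the median was 0.10 against -0.01. PLOD1 and BNIP3 are not in these counts. The lists were written with earlier results of these data known, and ADM is a gene the study itself reported from these libraries. The shares called are therefore descriptions.

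**Figure D3:**
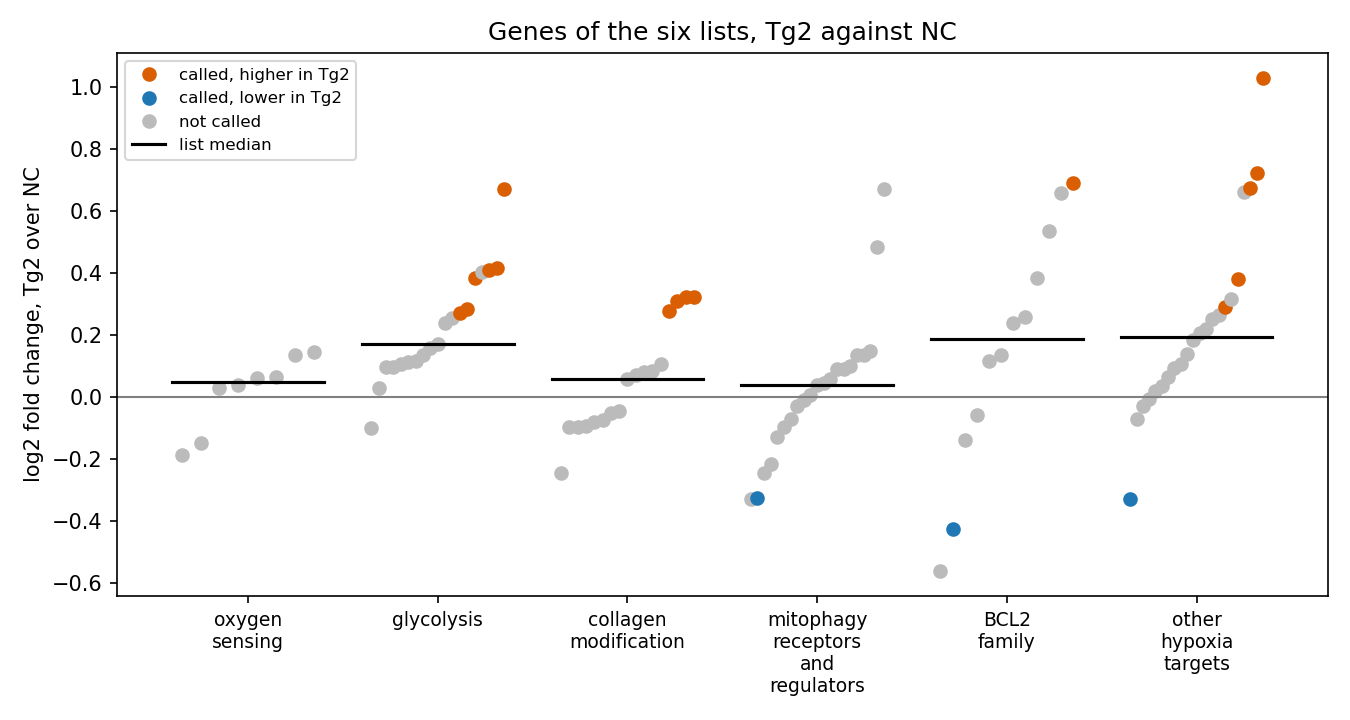
Log2 fold change of Tg2 over NC (vertical axis) for each tested gene of the 6 lists (horizontal axis), ordered within a list; orange and blue points were called higher and lower by edgeR, grey points were not called, and black lines are list medians. Glycolysis shows 6 orange points of 19, collagen modification a group of 4 near 0.3, and oxygen sensing none of 8.

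These list counts depended on which libraries were in the fit. The fold changes in Tg2 against NC moved less. Over all alternatives that of ADM ranged from 0.64 to 0.80 and that of PLOD2 from 0.23 to 0.41. Without NC replicate 1, NC replicate 3, Tg2 replicate 1 or Tg2 replicate 2 in turn the 19 calls became 1, 0, 4 and 0, and without NC replicate 2 or Tg2 replicate 3 they became 31 and 35. The calls over all genes moved with them, to 24, 0, 48, 0, 1321 and 1878 in the same order. Leaving out the 3 libraries that stood farthest from their groups lowers the spread between replicates by construction, so calls from that fit are not given. Epithelial markers, summed over the 7 genes, were at 3792 to 3962 CPM in NC and 4152 to 4319 CPM in Tg2, and the proximal tubule markers at 1344 to 1435 CPM in NC and 1164 to 1333 CPM in Tg2. The fibroblast list, nearly all of it COL1A2 with PDGFRB and LUM at a median of 0, summed to 927 to 966 CPM in NC and 849 to 879 CPM in Tg2, and the markers of other nephron segments to 13.9 to 17.2 CPM and 10.7 to 12.6 CPM. Their part in the list counts, and in the levels of PLOD1 and BNIP3, was not tested.

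With the other plasmids the lists held few calls. Called or not, 71, 71 and 70 of the 99 genes were higher than NC with WT, Tg1 and Tg3, beside 71 with Tg2. All of these contrasts share the NC libraries. Against NC, edgeR called 0 of 99 with WT (15 at an unadjusted p under 0.05, 2 called by DESeq2) and 0 of 99 with Tg3 (25 and 2), where it called 0% of all genes. With Tg1 it called 1 of 99, ADM, where it called 1.19% of all genes (0.182% higher and 1.01% lower). ADM rose there by 0.53 on the log2 scale (edgeR adjusted p = 0.0179), with 86.1, 103 and 106 CPM in the Tg1 libraries, and leaving out single libraries moved the count between 0 and 3. HK2, the glycolytic gene with the largest rise with Tg2, had differences from NC of 0.17 with WT, 0.17 with Tg1 and 0.42 with Tg3, none of them called. PLOD3 had 0.06, 0.13 and 0.15 in the same order.

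Against WT in place of NC, 10 of 99 genes of the lists were called with Tg2 (10.1%, against 5.92% of all genes), 3 higher and 7 lower, where 3.31% of all genes were called higher and 2.61% lower. HK2, PFKL and ADM rose, by 0.50, 0.31 and 0.37 on the log2 scale. EPAS1, PINK1, SQSTM1, GABARAPL1, BMF and TMEM45A fell, as did ULK1, an autophagy-initiating kinase named after its values were seen. PLOD3 had a difference of 0.26 that missed the fold threshold by little (edgeR adjusted p = 0.0381), and PLOD2 one of 0.26 with an edgeR adjusted p of 0.0697. With only Tg2 and WT in the model 0 of the list genes and 0 of all genes were called, and without WT replicate 2 the counts were 31 and 2421. EdgeR called 0 of 99 in Tg1 against WT (15 at an unadjusted p under 0.05, 0 called by DESeq2) and 0 of 99 in Tg3 against WT (24 and 2), and without WT replicate 2 these counts were 11 and 16, with 852 and 1321 of all genes. Tg2 and Tg3 were not separated over the genes as a whole, where the smallest edgeR adjusted p was 0.822 and 673 genes had an unadjusted p under 0.05.

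Across the 15 libraries PLOD1 and BNIP3 moved together, with Pearson's r of 0.91 and a Spearman coefficient of 0.87, and 0.73 after the group means were taken out. The libraries share their plasmid groups and their depth, and the NC and Tg2 libraries by which both genes were chosen are among them. Part of r was therefore set by the choice, and these values, also those with other genes below, are descriptions. Among 10184 genes with a symbol, those most like PLOD1 over the 15 libraries were ENO1 (r = 0.94), NDRG1 (0.94), a stress and hypoxia target, CTSC (0.93), a lysosomal protease, SLC2A5 (0.93), the fructose transporter, and SUPT5H (0.92), a transcription elongation factor. Those most like BNIP3 were CCN3 (0.97), a matrix-associated signalling protein, PFKL (0.97), TMEM139 (0.96), DLC1 (0.96), a GTPase-activating protein, and SEC24D (0.96), a coat protein of vesicles that leave the endoplasmic reticulum. BNIP3 stood 9th on the list of PLOD1, and PLOD1 199th on that of BNIP3. An r above 0.8 was less rare for BNIP3, which reached it with 10.5% of all genes tested, than for PLOD1, with 1.71%. Glycolysis genes reached it in 11 of 19 cases with PLOD1 and in 9 of 19 with BNIP3, and all list genes in 19.2% and 26.3% of cases. Oxygen sensing genes reached it in 0 of 8 and 1 of 8 cases, and mitophagy genes in 0 of 21 and 2 of 21. An r under -0.8 was found for 1 list gene with PLOD1 and for 6 with BNIP3, of which 3 were mitophagy genes. Over all genes tested it was found for 144 and 760 of 11552.

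Part of this likeness lay within the groups. The first principal component of the deviations from the group means over all genes tested held 43.5% of that variance. The library that stood highest on this axis also had the highest BNIP3 in 5 of 5 groups and the highest PLOD1 in 4 of 5. The library lowest on it had the lowest BNIP3 in 4 of 5 groups and the lowest PLOD1 in 4 of 5. Tg2 replicate 3, the lowest of the Tg2 libraries for both genes, was at the low end, and WT replicate 2, the highest WT library for both, at the high end. Both genes were among those from which the axis was computed. The share of all genes that follow it in as many groups was not counted, so these matches are only a description. What the axis stands for was not tested.

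**Figure D4:**
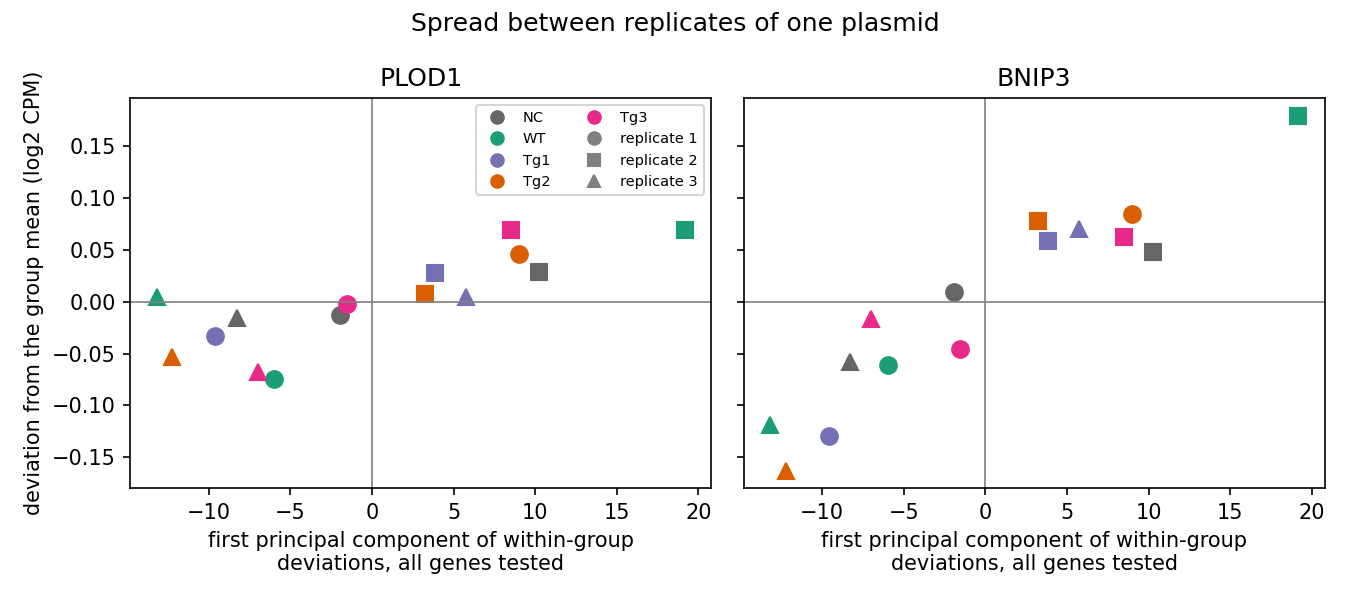
Deviation of PLOD1 (left) and BNIP3 (right) from the mean of their group in log2 CPM (vertical axis) against the first principal component of the within-group deviations of all genes tested (horizontal axis, arbitrary units); colours mark plasmids and symbols replicate numbers. The points climb from lower left to upper right in both panels, more steeply for BNIP3, with WT replicate 2 farthest right.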

How the data were processed

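The authors quantified poly(A) RNA-seq reads with Salmon against pig cDNA sequences from Ensembl and deposited unnormalized counts as whole numbers for each Ensembl gene. Salmon and DESeq2 are the tools in the submitters' processing notes, and no genome build is named in the sources used here. Symbols came from the gene table supplied or, for BNIP3, from the study's supplementary tables. Replicates differed by more than counting noise (chi-square per degree of freedom 2.73 to 40.3), and each library was counted once.

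Genes at a mean CPM of at least 2 were fitted with edgeR 4.0.16 in R 4.3.3 (TMM, glmQLFit, glmQLFTest, all 15 libraries in a single group-mean model) and adjusted by Benjamini-Hochberg over the 11553 genes. The thresholds were those of the study's methods. The SE was obtained from the fold change and its F statistic. Log2 CPM used a prior count of 0.5. The fit was also run on simulated counts with a common dispersion and independent libraries. The simulation had no deviations shared between genes, so it cannot show how the calls depend on single libraries.

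The 2 genes and the lists, 124 genes from general knowledge of which 111 were in the table, were chosen with earlier results of these data known. Named genes were PLOD1 and BNIP3, their paralogs, the HIF subunits and regulators, at most 4 genes per list, taken by smallest adjusted p in Tg2 against NC, list genes called in another contrast with NC, and the 5 genes most correlated with each member. One called gene of the lists is not reported here by name. Alternatives were DESeq2 1.42.0, other size factors, no filter, a fit of 2 groups, a replicate block, no fold threshold and leaving out libraries.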

Additional observations from a re-analysis of the deposited data

How the results depend on the processing

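The direction of PLOD1 and BNIP3 against NC, and of Tg2 against the other plasmids, held under every alternative run: DESeq2, DESeq2 size factors, no filter on low counts, a fit of the 2 groups compared, the replicate block, the number 2 libraries left out, each library left out in turn, and the 3 libraries farthest from their group means left out, the last chosen after seeing the data. Of the 19 genes of the lists called in Tg2 against NC, given 7 alternatives each, 130 of 133 values kept their call and direction and 3 lost the call (PLOD2 in 2 settings and MAFF in 1). These 7 do not include the fits without 1 library, 6 for each gene, in which the 19 genes lost the call 71 times. The fit without the 3 libraries farthest from their groups kept WT replicate 1 as the only WT library, so its differences from WT rest on a single well. The CPM of the library total gave a PLOD1 mean of 111.9 in NC. Where a value below changed, the cause was not tested, except that a fit of 2 groups and a fit without a library have fewer samples.

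With DESeq2 the calls over all lists were 2 (WT against NC), 4 (Tg1 against NC), 2 (Tg3 against NC), 17 (Tg2 against WT) and 2 (Tg3 against WT), and in Tg2 against NC 3 mitophagy and 4 BCL2 family genes were called. In the fit of the 2 groups compared these were 3 and 5, with 0 over all lists in Tg2 against WT. Without a fold threshold the calls against NC were 2 with Tg1 and 30 with Tg2, of which 10 were glycolysis, 4 mitophagy and 4 BCL2 family genes. Without the number 2 libraries the difference of PLOD1 between Tg1 and WT was 0.0092, and the calls were 0 (Tg1 against NC), 24 (Tg2 against WT), 3 mitophagy and 6 BCL2 family genes. Without the 3 libraries farthest from their groups PLOD1 differed by 0.036 between WT and NC, 0.33 between Tg2 and WT, 0.072 between Tg1 and WT and 0.067 between Tg3 and WT, BNIP3 by 0.50 between Tg2 and WT, and BNIP3L by 0.0063 between Tg2 and NC. The calls there were 4 (Tg1 against NC), 37 (Tg2 against NC) and 29 (Tg2 against WT), and in Tg2 against NC 1 oxygen sensing, 6 mitophagy, 8 BCL2 family and 11 other target genes.

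With the replicate number as a block the calls were 2 (Tg1 against NC), 20 (Tg2 against WT) and 4 (Tg3 against WT), with 4 mitophagy and 5 BCL2 family genes in Tg2 against NC. Same-numbered libraries of different groups had a mean correlation of deviations of 0.13, other pairs one of -0.07, and 16 of 30 same-numbered pairs were over 0.1. The main fit did not pair the samples by these numbers. The number 2 libraries correlated positively in every pair of groups, from 0.05 to 0.50. Numbers 1 and 3 went both ways, from -0.33 to 0.32 and from -0.40 to 0.52. The main fit has no term for a shift shared by the number 2 libraries, and its source was not tested. In 14 of 30 cases a library correlated best with the library of its own number.

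Leaving out each library in turn, the PLOD1 differences ranged from -0.040 to 0.032 (Tg1 against WT), from -0.045 to 0.026 (Tg3 against WT) and from -0.040 to 0.028 (Tg3 against Tg1), those of BNIP3 from -0.013 to 0.083 (Tg3 against Tg1), from 0.0045 to 0.16 (Tg1 against WT), from 0.053 to 0.21 (Tg3 against WT) and from 0.025 to 0.18 (WT against NC), and that of BNIP3L in Tg2 against NC from -0.064 to 0.023, with 0.0065 without Tg2 replicate 3. The 19 list genes called in Tg2 against NC, each given 6 of these fits, lost the call 71 times. The calls over all lists ranged from 0 to 1 (WT against NC), 0 to 3 (Tg1 against NC), 0 to 35 (Tg2 against NC), 0 to 11 (Tg1 against WT), 0 to 31 (Tg2 against WT) and 0 to 16 (Tg3 against WT). By list in Tg2 against NC they ranged from 0 to 1 (oxygen sensing), 0 to 7 (glycolysis), 0 to 4 (collagen modification), 0 to 6 (mitophagy), 0 to 6 (BCL2 family) and 0 to 11 (other targets).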
